A study of Homo sapiens with 9 samples.

Results

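Small nucleolar RNA (snoRNA) host genes were examined in A549, an established human lung cancer cell line, after transfection with plasmids for 2 long non-coding RNAs (lncRNAs). The host genes were taken by symbol: every gene named SNHG followed by a number, and the 4 hosts with other names, GAS5, ZFAS1, EPB41L4A-AS1 and DANCR. This gave 29 rows with 28 symbols among the 58735 genes of the count table, since SNHG28 is listed both as a protein-coding gene and as a lincRNA. The rule uses names and no expression value, although it was set with earlier results of these data known.

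All 9 libraries came from A549 cells transfected with jetPRIME, with 3 libraries per group. The control group (PC3) received a control plasmid, labelled PC3.1, PC3.2 or PC3.3 in the 3 libraries. The other groups received a plasmid for LINC00996 (group L996) or for AP001189.3 (group RP11). The time between transfection and RNA extraction is not given in the sources used here, and, although the study states that RNA was extracted in triplicate, it is not stated whether the 3 libraries of a group came from separate cultures, so p-values measure the spread between libraries, which may be technical.

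A snoRNA host gene is transcribed and spliced like an mRNA, and its introns carry snoRNAs that are released when the intron is trimmed. Box C/D snoRNAs bind fibrillarin (FBL), NOP56, NOP58 and SNU13 and guide ribose methylation of ribosomal RNA, while box H/ACA snoRNAs bind dyskerin (DKC1), NHP2, NOP10 and GAR1 and guide pseudouridylation. Small Cajal body RNAs (scaRNAs) are related guides for spliceosomal RNAs. The spliced host RNA usually encodes no long protein, many host RNAs are removed by nonsense-mediated decay, and several begin with a terminal oligopyrimidine tract, the start that ribosomal protein mRNAs share. Poly(A) libraries such as these read the spliced host RNA and not the mature snoRNA.

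The start of the host RNA was compared with that of other genes, using the start sites of RefSeq (GRCh38.p14), which matched 24 of the 28 symbols. A tract was counted when the first base was C and at least 5 bases from the start on were C or T, read on the strand of the gene. Such a start was found in 6 of 24 host genes (25.0%), namely SNHG4, SNHG5, SNHG12, SNHG18, SNHG19 and ZFAS1. The share was 4.07% over all 35116 RefSeq start entries (27305 genes), 56.0% over 84 entries of 68 matched cytosolic ribosomal protein genes and 20.6% over 180 entries of 128 matched protein-coding snoRNA hosts. The windows below run from 30 bases before the start to 30 bases from the start on. They are shown for 4 hosts that were called in at least 1 comparison, with the tract in capitals. Gene rows of the count table can begin elsewhere: 10 of the 24 RefSeq starts lay within 10 bases of the first base of their row, and 7 lay outside it (SNHG3, GAS5, DANCR, SNHG27, SNHG4, SNHG14 and SNHG16), GAS5 by 163 bases, so the search does not show how the counted RNA of these hosts begins. Of the starts shown, that of SNHG19 is the first base of its row, and those of SNHG5, ZFAS1 and SNHG12 lie 15, 464 and 1259 bases inside theirs. They lie at chr6:85678704-85678763 (minus strand, SNHG5), chr20:49278612-49278671 (plus strand, ZFAS1), chr16:2155329-2155388 (minus strand, SNHG19) and chr1:28581844-28581903 (minus strand, SNHG12).
SNHG5: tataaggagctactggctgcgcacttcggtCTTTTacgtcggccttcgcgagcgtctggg
ZFAS1: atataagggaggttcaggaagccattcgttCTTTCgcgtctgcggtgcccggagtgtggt
SNHG19: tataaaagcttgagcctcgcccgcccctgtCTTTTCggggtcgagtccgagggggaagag
SNHG12: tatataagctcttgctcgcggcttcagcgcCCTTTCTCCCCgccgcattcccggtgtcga

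The annotation of the files (GENCODE 29, GRCh38) places 137 snoRNA or scaRNA genes inside 27 of the 29 host rows on the same strand. Of these, 102 are named SNORD (box C/D), 23 SNORA (box H/ACA) and 4 SCARNA, and the others carry family identifiers only. SNHG14, the host of the SNORD115 and SNORD116 clusters in the imprinted Prader-Willi region, holds 84 of them. GAS5 and SNHG27 hold none in this annotation. Box sequences were searched on the snoRNA strand, as ATGATGA or GTGATGA (C box) in the first part of the gene and CTGA (D box) in the later part for SNORD genes, and as ACA at the 3′ end for SNORA genes. Both C/D boxes were found in 83 of 101 SNORD genes searched inside the hosts (SNORD87 was left out) and in 188 of 278 (67.6%) in the annotation, and ACA in 20 of 23 and in 132 of 147 (89.8%). One guide is shown for each of 5 hosts whose level differed in at least 1 comparison, with these boxes in capitals. They are SNORD50B in SNHG5 (chr6:85677589-85677658, minus strand), SNORD60 in SNHG19 (chr16:2155023-2155105, minus strand), SNORD12B in ZFAS1 (chr20:49280319-49280409, plus strand), SNORD116-24 in SNHG14 (chr15:25094037-25094128, plus strand) and SNORA26 in DANCR (chr4:52713249-52713370, plus strand).
SNORD50B: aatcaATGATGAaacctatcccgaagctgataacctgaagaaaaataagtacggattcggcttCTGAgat
SNORD60: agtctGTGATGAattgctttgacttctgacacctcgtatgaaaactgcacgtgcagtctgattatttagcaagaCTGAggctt
SNORD12B: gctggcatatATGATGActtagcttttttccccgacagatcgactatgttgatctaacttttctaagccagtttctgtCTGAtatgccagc
SNORD116-24: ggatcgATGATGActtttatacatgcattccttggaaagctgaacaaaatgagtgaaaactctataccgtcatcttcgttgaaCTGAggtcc
SNORA26: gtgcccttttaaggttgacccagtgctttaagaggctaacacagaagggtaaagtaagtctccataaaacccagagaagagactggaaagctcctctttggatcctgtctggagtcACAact

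Library totals lay between 15272450 and 18125447 counts. The transfected lncRNAs matched the labels, with 4373 to 5952 counts of LINC00996 in its group against 4 to 9 elsewhere, and 1660 to 2378 counts of AP001189.3 in its group against 0 to 2 elsewhere. The epithelial keratins KRT8, KRT18 and KRT7 were high in every library, and the epithelial marker EPCAM was low (4.45 to 6.89 FPKM). CDKN2A, which A549 has lost, had 0 counts, and the leukocyte gene PTPRC, the T cell gene CD3E and the stromal gene DCN had at most 4 counts in a library. Other stromal and endothelial markers were detected in every library, COL1A1 at 1.20 to 2.28 FPKM, PECAM1 at 0.942 to 1.11 in the controls against 0.313 to 0.446 with LINC00996 and 0.527 to 0.655 with AP001189.3, CDH5 at 0.414 to 0.771 and COL3A1 at 0.309 to 0.576, and their part in the results was not tested. LINC00996 replicate 1 stood apart from the other libraries of its group: a chi-square of the counts per gene was 22.4 and 33.3 against replicates 2 and 3, and 3.32 between replicates 2 and 3. Over 16560 genes, the rank correlation of a gene's deviation from the mean of the 9 libraries with its GC content was 0.43 in that library, −0.25 and −0.43 in replicates 2 and 3, −0.28 to −0.01 in the control libraries and 0.21 to 0.36 in the AP001189.3 libraries. With gene length it was 0.11 to 0.16 in the control libraries, −0.22, −0.06 and 0.03 in LINC00996 replicates 1 to 3 and −0.06 to −0.04 in the AP001189.3 libraries. Several results are therefore given with and without LINC00996 replicate 1, others only with it, and its part in them was not tested. In bulk RNA, fewer cells that express a gene and less RNA per cell cannot be told apart.

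The host genes took 0.0599% ± 0.000263 (SD, n = 3) of the counts in the control group, 0.0714% ± 0.00298 in the LINC00996 group and 0.0599% ± 0.00178 in the AP001189.3 group. The 3 LINC00996 libraries lay between 0.0683% and 0.0742%, above all other libraries, which reached 0.0620%. Of the 29 rows, 26 had more than 3 counts in at least 1 library. SNHG18 had at most 1 count in any library, while SNHG27 and the lincRNA row of SNHG28 had 0 in all of them, which allows up to 3 counts per library and covers counting error only.

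Levels were compared between genes as FPKM, the deposited unit per gene length. In the mean over the 9 libraries SNHG5 was highest with 26.9 FPKM, followed by GAS5 with 25.2, SNHG6 with 24.2, ZFAS1 with 21.3 and SNHG8 with 19.5. SNHG1 (18.2), SNHG16 (12.8), SNHG19 (11.4), SNHG7 (7.03) and SNHG17 (6.47) followed, and EPB41L4A-AS1, SNHG3, SNHG12, SNHG15, SNHG11, SNHG4, DANCR, SNHG10 and SNHG14 lay between 4.95 and 1.40. SNHG20, SNHG21, SNHG9, SNHG25, SNHG26, SNHG28 and SNHG22 were below 1 FPKM. The order at the top depended on the group. In control cells SNHG6 (28.2 ± 4.95 FPKM, n = 3) and GAS5 (26.7 ± 0.878) stood first, within their spread of each other, and SNHG5 (19.9 ± 1.56) came after them. In the LINC00996 group SNHG5 stood first at 35.4 ± 3.57 FPKM, above GAS5 at 24.6 ± 3.85. The SNHG14 row pools 43324 exon bases of a long region, so its FPKM is an average over many exons.

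**Figure D1:**
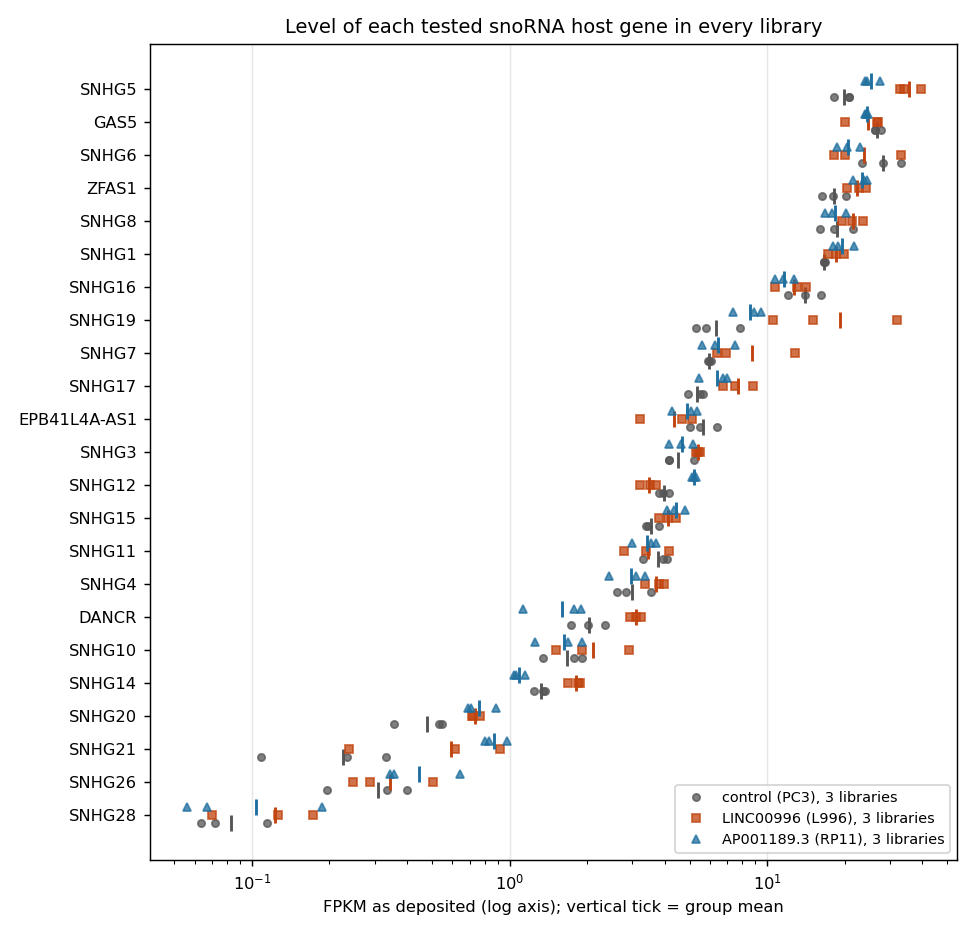
FPKM (log axis) of the 23 tested snoRNA host genes in every library, ordered by mean, with circles for control, squares for LINC00996 and triangles for AP001189.3 and a vertical tick for each group mean of 3 libraries. SNHG5, GAS5, SNHG6, ZFAS1 and SNHG8 have the highest means, and for SNHG19 and SNHG7 1 LINC00996 library (replicate 1) lies far to the right of replicates 2 and 3.

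GAS5, which accumulates in growth-arrested cells and can bind the glucocorticoid receptor, was the most counted host by mean CPM in control and passed the test in 0 of 3 comparisons. Its normalised read count, in CPM (counts scaled to library size with TMM factors), was 96.1, 96.1 and 102 in the control libraries, 74.3, 98.0 and 98.2 in the LINC00996 libraries and 88.3, 90.6 and 88.7 in the AP001189.3 libraries. LINC00996 replicate 1 was the low library, and the AP001189.3 libraries lay just below the control libraries. The log2 fold change against control was −0.12 (95% interval −0.38 to 0.13) for LINC00996 and −0.14 (−0.25 to −0.02) for AP001189.3, with adjusted p-values of 0.49 and 0.093, the latter called lower on library size alone and with a gene-length offset (edgeR's quasi-likelihood test, Benjamini-Hochberg adjustment over all genes tested, as for every adjusted p here).

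Effects of LINC00996 were read against the control plasmid. Of 22 host genes tested, 5 were higher in the LINC00996 group and 0 were lower. The higher ones were SNHG5, SNHG14, SNHG17, DANCR and SNHG19. Over all 16097 genes tested, 10.7% were called higher and 11.6% lower, that is 1722 and 1866 genes, against 2006 and 1669 on library size alone and 1924 and 1707 with the gene-length offset. At an unadjusted p under 0.05, 8 host genes were higher (ZFAS1, SNHG7 and SNHG20 in addition) and 0 lower. DESeq2 called 6 higher (SNHG7 in addition) and 0 lower, beside 1755 higher and 1906 lower of all 16097 genes. Its unadjusted p was under 0.05 for 8 higher and 1 lower host, beside 2637 and 2619 of all genes. The log2 fold change was positive for 16 of 22 hosts with a median of 0.28, beside a median of 0.01 over all genes tested. Without LINC00996 replicate 1, 9 host genes were higher (SNHG1, ZFAS1, SNHG4 and SNHG20 joined) and 2 were lower (SNHG6 and EPB41L4A-AS1), with a median of 0.22. Over all genes that fit called more as well, 15.9% higher and 17.3% lower.

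SNHG5, host of the SNORD50 guides and a start-tract gene, had the firmest difference. It measured 58.7, 59.1 and 51.4 CPM in the control libraries, 93.5, 112 and 95.9 CPM in the LINC00996 libraries and 78.0, 68.1 and 69.0 CPM in the AP001189.3 libraries. The 3 groups did not overlap, with control lowest and LINC00996 highest. The level with LINC00996 was 1.78-fold that of control, a log2 fold change of 0.83 ± 0.11 (SE) with an adjusted p of 0.00025, and the call held in 6 of 6 fits that left out 1 library. Apart from its snoRNA gene SNORD50B, no other gene of the annotation has an exon that overlaps one of SNHG5.

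SNHG19 is a short host of 342 exon bases around SNORD60. Its counts were 31, 32 and 47 in control, 203, 82 and 67 with LINC00996 and 52, 39 and 54 with AP001189.3. All LINC00996 libraries were above all others, and replicate 1 was far above its own group. Against control it was 3.05-fold higher with LINC00996, a log2 fold change of 1.61 ± 0.37 (adjusted p = 0.0093). Without replicate 1 the fold was 2.01, a log2 fold change of 1.01 ± 0.27 (adjusted p = 0.0035).

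SNHG14, SNHG17 and DANCR had smaller differences. SNHG14 measured 54.4, 59.9 and 58.9 CPM in control, 74.5, 82.3 and 80.6 CPM with LINC00996 and 46.6, 50.2 and 45.5 CPM with AP001189.3. Every LINC00996 library lay above and every AP001189.3 library below the control range. Against control, LINC00996 gave a log2 fold change of 0.45 ± 0.10 (adjusted p = 0.0057), which missed the threshold without control replicate 1 (adjusted p = 0.050). SNHG14 exons share 0.457% of their bases with UBE3A, which lies on the other strand, and 0.325% with SNRPN.

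SNHG17, which holds the SNORA71 guides, measured 23.1, 20.9 and 24.0 CPM in control, 37.4, 31.7 and 28.4 CPM with LINC00996 and 23.0, 28.5 and 29.4 CPM with AP001189.3. The LINC00996 libraries lay above the control range and overlapped the AP001189.3 range. LINC00996 against control gave a log2 fold change of 0.52 ± 0.13 (adjusted p = 0.013), 1.43-fold, and 1.32-fold without LINC00996 replicate 1. Without control replicate 1 or control replicate 2 SNHG17 was not called, with adjusted p-values up to 0.082.

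DANCR, host of SNORA26 and known for keeping progenitor cells undifferentiated, had 79, 64 and 94 counts in control, 131, 107 and 138 with LINC00996 and 44, 63 and 72 with AP001189.3. LINC00996 libraries stood clear of both other groups, which overlapped. Its log2 fold change against control was 0.61 ± 0.17 (adjusted p = 0.026), and it was called in 2 of 6 fits that left out 1 library, with adjusted p-values up to 0.12. The call was lost without control replicate 1, control replicate 2, LINC00996 replicate 2 or LINC00996 replicate 3.

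The other hosts did not pass edgeR's test in this comparison, although alternatives called some of them higher, SNHG7 in 3 of 8 (DESeq2 among them, adjusted p = 0.038), SNHG20 in 5 of 8 and ZFAS1 in 3 of 8. SNHG7, host of SNORA17A and SNORA17B, measured 25.7, 26.6 and 26.1 CPM in control and 56.5, 30.4 and 28.0 CPM with LINC00996, so that replicate 1 carried most of its log2 fold change of 0.55 (0.16 without that library). SNHG20 (0.62, adjusted p = 0.061) and ZFAS1 (0.30, adjusted p = 0.084) had no overlap with control either. ZFAS1 shares 11.1% of its exon bases with ZNFX1 on the opposite strand, whose own log2 fold change was −0.80. Log2 fold changes of SNHG1, SNHG3, SNHG8, SNHG15, SNHG4, SNHG10, SNHG26 and SNHG28 lay between 0.15 and 0.58, and those of SNHG16, SNHG6, SNHG12, EPB41L4A-AS1 and SNHG11 between −0.38 and −0.13. SNHG21 had too few counts to be tested.

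**Figure D2:**
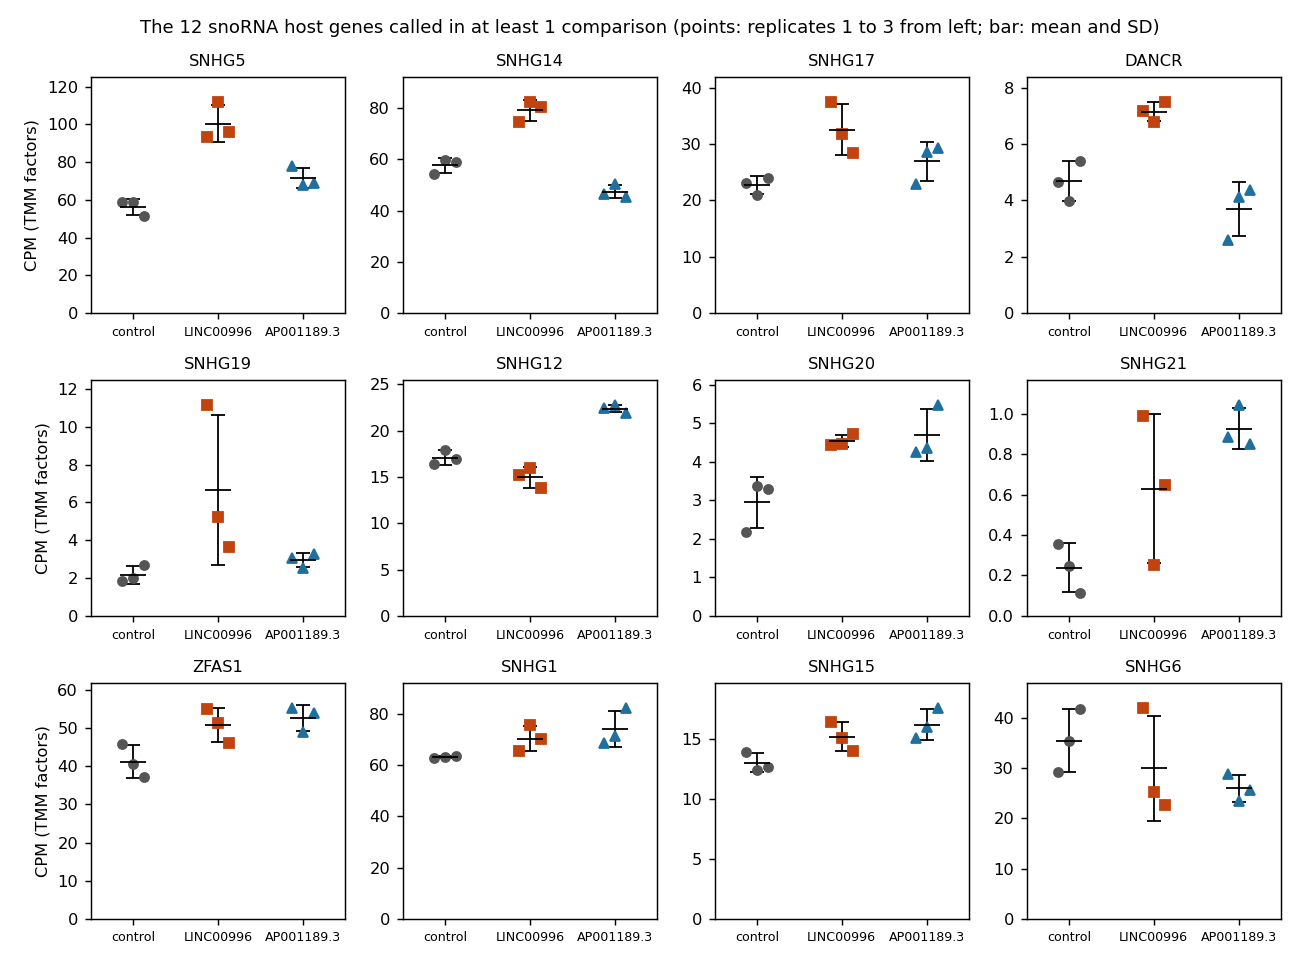
CPM with TMM factors in every library for the 12 snoRNA host genes called in at least 1 comparison, with replicates 1 to 3 from left to right and a bar for the mean and SD of 3 libraries. For SNHG5 the 3 groups are separate, for SNHG14 LINC00996 is above and AP001189.3 below control, for SNHG12 AP001189.3 alone is high, and for SNHG19 and SNHG6 LINC00996 replicate 1 is far above replicates 2 and 3.

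The AP001189.3 plasmid was compared with the same 3 control libraries, so both sets of fold changes share their reference. Of 22 host genes tested, 7 were higher and 2 lower with AP001189.3. The higher ones were SNHG5, SNHG1, ZFAS1, SNHG12, SNHG15, SNHG20 and SNHG21, and the lower ones SNHG14 and SNHG6. Over all 16023 genes tested, 11.4% were called higher and 8.49% lower, that is 1819 and 1361 genes, against 1608 and 1719 on library size alone and 1181 and 1201 with the GC-content offset. Of the hosts 12 had a positive log2 fold change, and their median was 0.08 (0.10 to 0.20 when 1 library was left out, highest without AP001189.3 replicate 2), beside −0.00 over all genes tested. When all 9 libraries shared 1 estimate of the spread, 0 host genes were called by edgeR in either direction (7 higher and 3 lower at an unadjusted p under 0.05), and 435 genes in all instead of 3180. At that unadjusted threshold 1876 of all genes were higher and 1353 lower. DESeq2 on the 6 libraries called 5 higher and 3 lower (SNHG16 in addition), beside 1565 higher and 1160 lower of all genes.

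Differences were small for the well-counted hosts. SNHG5 had a log2 fold change of 0.35 ± 0.07 (adjusted p = 0.00084), with libraries given above. SNHG12, which holds SNORD99 and H/ACA guides such as SNORA61, had 278, 288 and 294 counts in control, 277, 251 and 254 with LINC00996 and 380, 349 and 361 with AP001189.3. The AP001189.3 libraries stood above both other groups, and after scaling the LINC00996 libraries lay below control (15.2, 15.9 and 13.8 CPM against at least 16.4). With AP001189.3 the log2 fold change of SNHG12 was 0.39 ± 0.10 (adjusted p = 0.0052), against −0.19 (adjusted p = 0.30) with LINC00996.

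ZFAS1, the host of the SNORD12 guides antisense to ZNFX1, measured 45.8, 40.7 and 37.1 CPM in control, 55.1, 51.3 and 46.1 CPM with LINC00996 and 55.2, 48.9 and 53.9 CPM with AP001189.3. Both plasmid groups lay above control, LINC00996 replicate 3 only just. The AP001189.3 fold change was 0.35 ± 0.08 on the log2 scale (adjusted p = 0.0019), where ZNFX1 had 0.18. SNHG1, host of SNORD22 and SNORD25 to SNORD28, had 63.1 ± 0.367 CPM in control and 74.1 ± 7.17 CPM with AP001189.3, a log2 fold change of 0.23 ± 0.07 (adjusted p = 0.016). That call was lost without control replicate 2 or AP001189.3 replicate 3 (adjusted p-values up to 0.19) and with a gene-length offset (adjusted p = 0.061). SNHG15, host of SNORA9, had 13.1 ± 0.797 and 16.2 ± 1.27 CPM, a log2 fold change of 0.31 ± 0.11 (adjusted p = 0.047). It was called in 2 of 6 fits that left out 1 library, those without replicate 1 of either group, with adjusted p-values up to 0.21, and 2 of 8 alternatives kept it, DESeq2 not among them (adjusted p = 0.078).

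SNHG20 and SNHG21, hosts of SCARNA16 and SCARNA15, had larger fold changes on low counts. SNHG20 had 37, 54 and 57 counts in control, 81, 70 and 87 with LINC00996 and 72, 67 and 90 with AP001189.3. Both plasmid groups stood above control and overlapped each other. AP001189.3 against control gave a log2 fold change of 0.67 ± 0.22 (adjusted p = 0.028), which was lost without control replicate 1, AP001189.3 replicate 2 or AP001189.3 replicate 3 (adjusted p-values up to 0.15).

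SNHG21 had 6, 4 and 2 counts in control, 18, 4 and 12 with LINC00996 and 15, 16 and 14 with AP001189.3. All AP001189.3 libraries were above all control libraries. Its log2 fold change of 1.92 ± 0.52 (95% interval 0.85 to 2.99, adjusted p = 0.0093) rests on these few reads, and 72.9% of its exon bases are shared with AC105339.2 on the same strand. Without AP001189.3 replicate 2 or control replicate 3 it was not called, with adjusted p-values up to 0.057, and DESeq2 gave no adjusted p for it.

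The lower hosts with AP001189.3 were SNHG14 and SNHG6. SNHG14 had a log2 fold change of −0.28 ± 0.07 (adjusted p = 0.0041, and 0.22 with a gene-length offset), the opposite sign to LINC00996. SNHG6, host of SNORD87, measured 29.2, 35.5 and 41.8 CPM in control, 41.9, 25.2 and 22.8 CPM with LINC00996 and 28.9, 23.4 and 25.7 CPM with AP001189.3. Its control libraries varied widely, all AP001189.3 libraries lay below them, and LINC00996 replicate 1 was as high as the highest control library. SNHG6 had a log2 fold change of −0.45 ± 0.11 with AP001189.3 (adjusted p = 0.0089, and 0.053 without AP001189.3 replicate 2), while with LINC00996 it was −0.24 (adjusted p = 0.44) and −0.57 without replicate 1 (adjusted p = 0.0010). SNHG6 shares 29.3% of its exon bases with MCMDC2, which had 172 counts over all libraries.

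Log2 fold changes of the hosts that did not pass lay between −0.35 (DANCR, adjusted p = 0.27) and 0.54 (SNHG26, adjusted p = 0.39). SNHG16, host of the SNORD1 guides, was −0.27 (adjusted p = 0.059, but called lower in 4 of 8 alternatives with adjusted p-values down to 0.0010, and without control replicate 3 or AP001189.3 replicate 3) and SNHG17 0.25 (adjusted p = 0.080). SNHG8, host of SNORA24, had 287, 240 and 349 counts in control, 404, 312 and 336 with LINC00996 and 283, 240 and 311 with AP001189.3. These ranges overlap, and its log2 fold change was 0.21 (95% interval −0.10 to 0.52) with LINC00996 and −0.02 (−0.26 to 0.22) with AP001189.3. SNHG3, SNHG4, SNHG7, SNHG10, SNHG11, SNHG19 and EPB41L4A-AS1 lay between −0.20 and 0.44, and the protein-coding row of SNHG28 was not tested here.

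**Figure D3:**
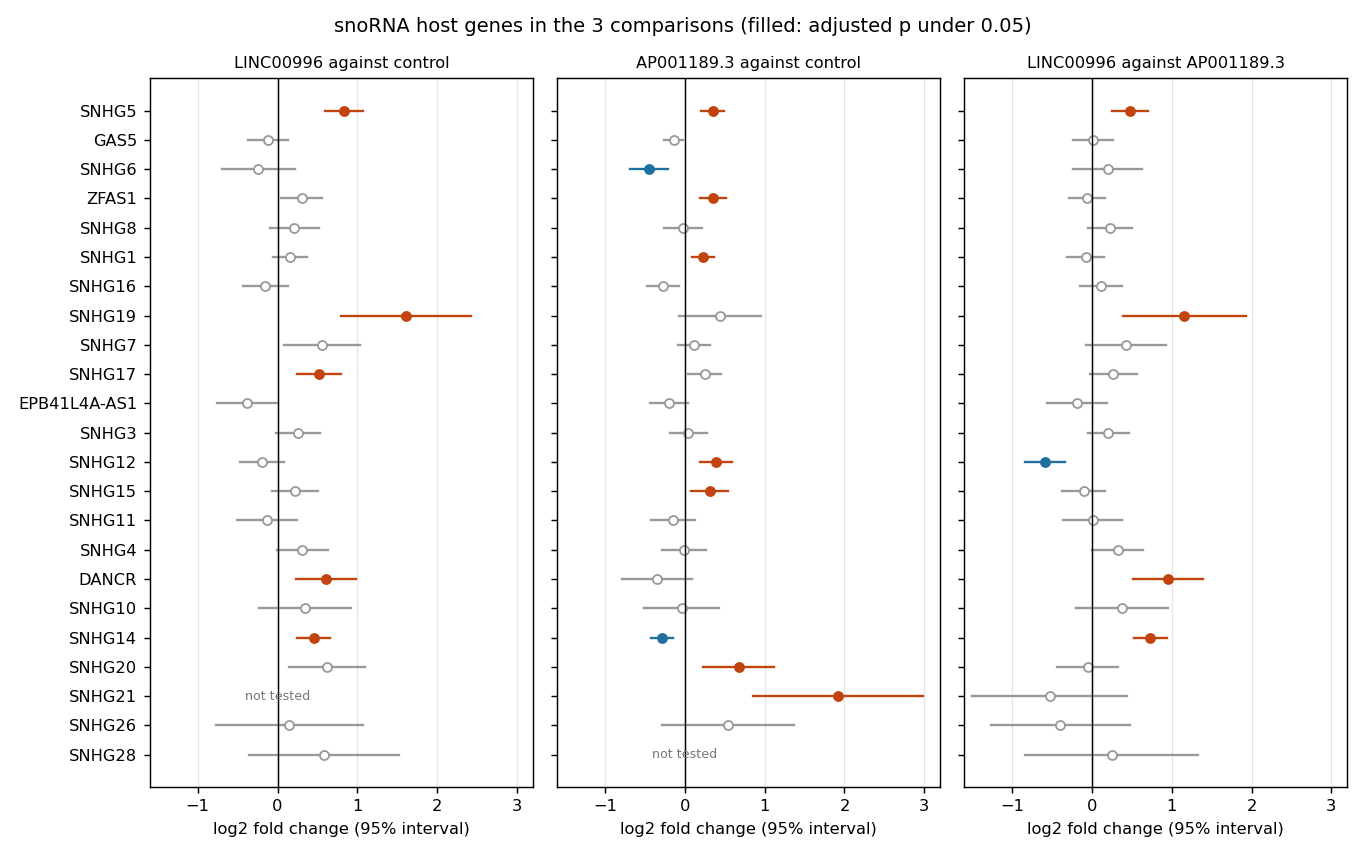
Log2 fold change with its 95% interval for each tested snoRNA host gene in the 3 comparisons, ordered as by mean FPKM, with filled points where the adjusted p was under 0.05. SNHG5 is filled in all 3 panels, SNHG14 is positive in both panels with LINC00996 and negative for AP001189.3 against control, and SNHG12 is filled on the positive side for AP001189.3 against control and on the negative side for LINC00996 against AP001189.3.

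The plasmid groups were also compared with each other, which tests directly whether a host differed between LINC00996 and AP001189.3. Of 23 host genes tested, 4 were higher with LINC00996 (SNHG5, SNHG14, DANCR and SNHG19) and 1 was lower (SNHG12). Among all 16095 genes tested, 9.38% were called higher and 12.1% lower, that is 1510 and 1942 genes. This split depended on scaling, with 2129 higher and 1667 lower on library size alone and 2101 and 1792 with a gene-length offset, while the hosts' counts were 4 and 1 under both. The median over the hosts was 0.20, with 15 of 23 positive, beside 0.02 over all genes tested.

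SNHG14 had the smallest adjusted p, with a log2 fold change of 0.73 ± 0.10 (adjusted p = 0.00026), 1.66-fold higher with LINC00996. SNHG12 was next, lower by −0.59 ± 0.11 (adjusted p = 0.0038), called in all 6 fits that left out 1 library. DANCR had 0.95 ± 0.20 (adjusted p = 0.0062) and SNHG5 with 0.48 ± 0.10 (adjusted p = 0.0071), the latter not called without AP001189.3 replicate 2 or AP001189.3 replicate 3 (adjusted p-values up to 0.053). SNHG19 had 1.16 ± 0.35 (adjusted p = 0.036), a 2.23-fold difference, and 0.56 ± 0.23 without LINC00996 replicate 1 (adjusted p = 0.048), a 1.48-fold difference. It was not called without any 1 of the AP001189.3 libraries, with adjusted p-values up to 0.13. Without LINC00996 replicate 1, 6 hosts were higher, with SNHG16 and SNHG4 in addition, beside 20.3% of all genes higher and 21.3% lower, and the median was 0.08.

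For the hosts called against control but not here, the interval of the direct difference was ZFAS1 −0.28 to 0.17, SNHG1 −0.31 to 0.15, SNHG15 −0.37 to 0.17, SNHG20 −0.44 to 0.33, SNHG17 −0.03 to 0.56 and SNHG6 −0.23 to 0.63. SNHG21 had −0.53 with an interval of −1.50 to 0.44. A missing call does not show that both plasmids acted alike on these hosts.

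LINC00996 replicate 1 deviated unevenly over the hosts. It lay above both other LINC00996 libraries for 11 of 22 hosts, below both for 8 and between them for 3. Its CPM was 2.52 times the mean of replicates 2 and 3 for SNHG19, 1.94 times for SNHG7, 1.75 times for SNHG6 and 1.71 times for SNHG10, and 0.757 times for GAS5 and 0.629 times for SNHG26. GC content of the exons was 56.1% for SNHG19 and 61.2% for SNHG7, and 43.5% and 41.7% for GAS5 and SNHG26, but SNHG6 had 41.3% and SNHG10 47.5%. With a GC-content offset per library, tried after the data were seen, 11 hosts were higher and 0 lower with LINC00996 against control (0 lower also at an unadjusted p under 0.05), beside 19.5% of all genes higher and 18.4% lower.

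**Figure D4:**
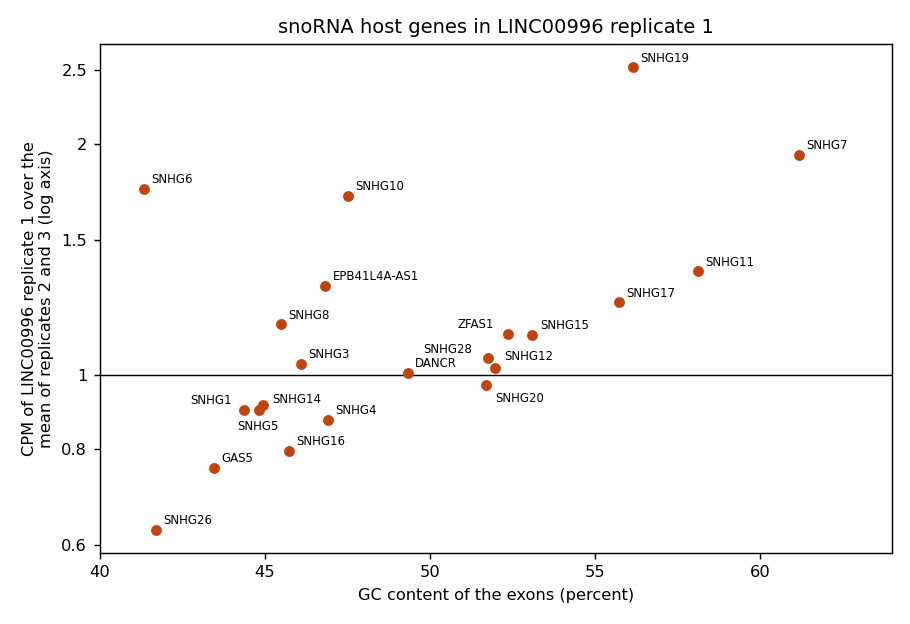
CPM of LINC00996 replicate 1 divided by the mean of replicates 2 and 3 (log axis) against the GC content of the exons for 22 snoRNA host genes. SNHG19, SNHG7, SNHG6 and SNHG10 lie highest, of which SNHG6 has a low GC content, while GAS5 and SNHG26 lie lowest.

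The proteins that build snoRNA particles and other lists were read from the same fits, beside the shares of all genes given above (10.7% higher and 11.6% lower with LINC00996, 11.4% and 8.49% with AP001189.3, 9.38% and 12.1% in the direct comparison). DESeq2 called 1755 higher and 1906 lower of 16097 genes with LINC00996, 1565 and 1160 of 16023 with AP001189.3 and 1531 and 1980 of 16095 in the direct comparison. Its counts at an unadjusted p under 0.05 were 2637 and 2619, 2344 and 2100, and 2426 and 2678. The lists were not fitted with a gene-length offset, and the part of gene length in them was not tested. Of the 8 core snoRNP proteins, 6 were higher with LINC00996 against control and 0 lower, with a median of 0.50, by edgeR and by DESeq2, and at an unadjusted p under 0.05 7 were higher and 0 lower. NHP2 had a log2 fold change of 1.40 ± 0.22, FBL 0.55 ± 0.11, DKC1 0.53 ± 0.09 and NOP56 0.45 ± 0.09, with adjusted p-values between 0.0011 and 0.0051. NHP2 measured 67.2, 38.4 and 33.1 CPM in the LINC00996 libraries, the highest in replicate 1, and its log2 fold change was 1.02 ± 0.11 without that library (adjusted p = 6.3e-09). The same count of 6 higher and 0 lower was found without LINC00996 replicate 1, where FBL, DKC1 and NOP56 had 0.43, 0.52 and 0.40. Against control, AP001189.3 gave 3 higher and 0 lower, NHP2 with 0.80 ± 0.09, DKC1 with 0.27 ± 0.07 and FBL with 0.18 ± 0.06. Between the plasmids NOP10, NOP56 and FBL were higher with LINC00996, by 0.40, 0.32 and 0.37, and 0 were lower. Without LINC00996 replicate 1 these 3 differences were 0.33, 0.27 and 0.26. Neither comparison had a core protein lower at an unadjusted p under 0.05 or by DESeq2.

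Of 11 snoRNP assembly factors, the ATPases RUVBL1 and RUVBL2, which load core proteins onto box C/D snoRNAs, were higher in both comparisons with control and 0 factors were lower by edgeR or DESeq2. At an unadjusted p under 0.05, 0 were lower with LINC00996 and 2 with AP001189.3, where the median over the list was −0.13 although both calls were higher. These 2 of 11 are 18.2% of the list. The log2 fold changes of RUVBL1 and RUVBL2 were 0.74 and 0.68 with LINC00996 and 0.30 and 0.40 with AP001189.3, and RUVBL1 was also higher by 0.43 in the direct comparison, where 0 factors were lower by either tool or at an unadjusted p under 0.05. Without LINC00996 replicate 1, RUVBL1 and RUVBL2 had 0.66 and 0.52 against control, and RUVBL1 had 0.36 in the direct comparison. Nonsense-mediated decay factors went both ways. With LINC00996, 5 of 15 were higher and 3 lower, and 5 and 4 without replicate 1, where 15.9% of all genes were higher and 17.3% lower. The exon junction proteins RBM8A (0.85) and MAGOH (0.99) and the factor UPF3A (0.64) rose, and the kinase SMG1 fell by 0.39 on the log2 scale. Without LINC00996 replicate 1 their log2 fold changes were 0.88, 0.80, 0.59 and −0.32. With AP001189.3, 5 were higher and 0 lower by edgeR and by DESeq2 (1 lower at an unadjusted p under 0.05), among them MAGOH (0.78), UPF3A (0.31), RBM8A (0.27) and SMG6 (0.23). Directly compared, RBM8A was higher with LINC00996 by 0.58, and SMG1 and SMG6 were lower, at −0.36 and −0.34, with 2 higher and 3 lower in all.

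Protein-coding genes that carry snoRNAs were more often called higher than lower with LINC00996, 48 against 6 of 151 tested, with a median of 0.16. This list overlaps others: the core proteins NOP56, NOP58 and DKC1 and ribosomal protein genes such as RPS2, RPS3A and RPL5 are in it. Its counts are therefore not separate from theirs. The translation factor EEF1B2 (0.78), the ribosomal protein RPL3 (0.70) and the phosphate carrier SLC25A3 (0.63) rose, and RNF149 fell by 0.93 on the log2 scale. Without LINC00996 replicate 1 the counts were 65 and 21, where 15.9% of all genes were higher and 17.3% lower. With AP001189.3 they were 18 higher (a share near the 11.4% of all genes) and 32 lower (21.3%) of 150, with RPS2 (0.47) and C6orf48 (0.94) among the higher ones. In the direct comparison 40 of 149 were higher and 8 lower with LINC00996, RPS3A (0.75), EEF1B2 (0.72) and RPL5 (0.58) up and RNF149 (−0.93) down. Without LINC00996 replicate 1 the direct comparison had 69 higher and 17 lower of 150 such hosts, 6 core proteins and 7 assembly factors higher, and 6 decay factors lower, where 20.3% of all genes were higher and 21.3% lower. In that setting LINC00996 against control had 4 assembly factors higher.

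Cytosolic ribosomal protein genes, the classic start-tract genes, gave 48 higher and 1 lower of 83 with LINC00996 against control, with a median of 0.39 (0.27, with 50 higher and 8 lower, without replicate 1). Many of them have pseudogene copies that could split reads, so single values are uncertain. RPL26 (1.42), RPS15A (1.19), RPL22 (1.18) and RPL6 (0.64) had the smallest p. Without LINC00996 replicate 1 they had 1.37, 1.06, 1.21 and 0.62. With AP001189.3, 24 were higher and 18 lower with a median of −0.00, RPL26 (1.08), RPS15A (0.83) and RPS2 (0.47) up and RPS23 (−1.01) down. Directly compared, 37 were higher and 0 lower with LINC00996 by edgeR, and 0 were lower by DESeq2 or at an unadjusted p under 0.05. The smallest p belonged to RPS3A (0.75), RPL6 (0.63), RPL5 (0.58) and RPS6 (0.62). Without LINC00996 replicate 1 the direct comparison had 50 higher and 2 lower of 83, where 20.3% of all genes were higher and 21.3% lower. The median was 0.21 there, and 0.35 with all 6 libraries. With all 9 libraries in 1 fit, AP001189.3 against control left 0 core proteins, 0 assembly factors, 1 decay factor, 3 higher and 1 lower protein-coding host and 7 higher and 1 lower ribosomal protein gene.

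Reads on the snoRNA genes themselves were few. All 993 snoRNA rows of the table together took 490 to 640 counts per library. Of the 44 snoRNA genes that overlap an exon of their host, 0 had a count in any library, while 33 of 93 outside host exons had counts. Leaving out SNHG14, these were 0 of 31 and 17 of 22. SNORD12B in ZFAS1 had 72 counts over the 9 libraries, SNORD104 in SNHG25 64, SNORA73B in SNHG3 58, SNORA60 in SNHG11 51 and SNORA71C in SNHG17 50. SNORD50B, whose sequence is printed above, lies wholly inside an annotated exon of SNHG5 and had 0 counts, and SNORD60 in SNHG19 had 0 as well although it lies outside the exons, where it overlaps another snoRNA row. The other 59 rows outside host exons without counts were at 0 in every library too. The cause of the zeros was not tested, and these rows were not compared between groups.

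**Figure D5:**
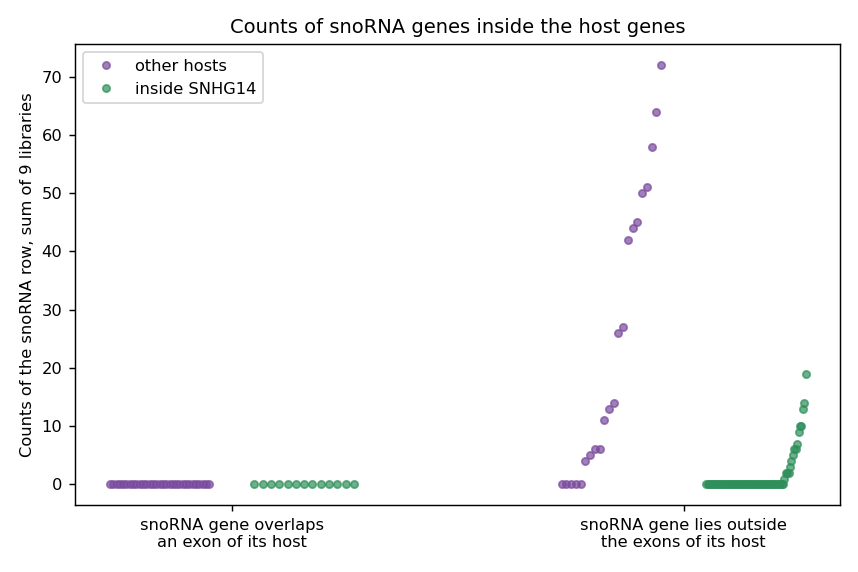
Counts summed over 9 libraries for each of the 137 snoRNA genes inside the host genes, split by whether the snoRNA overlaps an exon of its host, with SNHG14 apart. All 44 snoRNA genes that overlap a host exon lie at 0, and 17 of 22 that do not, outside SNHG14, have counts, up to 72.

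Several hosts share exon bases with other genes, and the strand setting of the counting is not stated in the sources used here, so shared bases cannot be assigned from the counts. The share was 49.6% of the exon bases for EPB41L4A-AS1 (with EPB41L4A), 25.2% for SNHG7 (FAM69B), 20.1% for SNHG10 (GLRX5), 30.6% for SNHG16 (AC015802.6), 7.56% for SNHG20 (SEC14L1), 5.92% for SNHG3 (RCC1) and 0.188% for SNHG12 (TRNAU1AP). SEC14L1, which shares bases with SNHG20, had a log2 fold change of −0.01 with LINC00996 and 0.14 with AP001189.3. Leaving snoRNA genes aside, SNHG1, SNHG5, SNHG8, SNHG15, SNHG17 and SNHG19 share none.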

How the data were processed

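RNA-seq of 9 A549 libraries was analysed. Poly(A) RNA was sequenced with 150 bp paired reads by the authors. Per the submitters' processing notes, HISAT2 2.0.5 and featureCounts 1.5.0-p3 were used on GRCh38. The authors deposited raw counts per gene and FPKM values per library, the latter relative to gene length and library total. Gene coordinates equal GENCODE 29 for all 58735 genes. Counts were used for tests and FPKM for levels between genes.

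Each comparison was fitted on its 6 libraries with edgeR 4.0.16 (R 4.3.3) using filterByExpr, TMM and the robust quasi-likelihood test, with Benjamini-Hochberg adjustment over all genes tested and a threshold of 0.05, and was tested on simulated data. Counts beyond 3 were taken as above the floor. The members, gene lists and tests were chosen with earlier results of these data known. Members with over 3 counts in at least 1 library were named, those at the floor were named as such, and up to 4 called genes were named per list and comparison. Values per library were given for members called with a log2 change of 0.5 or more in size and the 5 with the highest FPKM. They were also given for SNHG7, where LINC00996 replicate 1 stood apart. Alternatives were DESeq2 1.42.0, library size alone, other filters, 1 fit of all 9 libraries, a replicate block, length or GC offsets (loess span 0.75), a log2 change of 1 or more in size and leaving out each library. Some genes of the lists are not reported here by name.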

Additional observations from a re-analysis of the deposited data

How the results depend on the processing

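For single host genes, 820 of the recomputed log2 fold changes kept their direction and their side of the threshold, 40 kept the direction and lost the call, 37 kept the direction and gained one, and 33 turned sign (2 DESeq2 values without an adjusted p left aside), of which 0 belonged to a host called in that comparison. Leaving out 1 library, the log2 fold changes that turned sign ranged for LINC00996 against control from −0.19 to 0.00091 for GAS5, −0.30 to 0.010 for SNHG11 and −0.20 to 0.37 for SNHG26. For AP001189.3 against control they ranged from −0.0059 to 0.21 for SNHG7, −0.038 to 0.16 for SNHG3, −0.12 to 0.099 for SNHG8, −0.11 to 0.12 for SNHG4 and −0.18 to 0.11 for SNHG10. In the direct comparison they ranged from −0.058 to 0.14 for GAS5, −0.13 to 0.0068 for SNHG1, −0.12 to 0.0062 for ZFAS1, −0.12 to 0.36 for SNHG6, −0.15 to 0.15 for SNHG11, −0.12 to 0.073 for SNHG20 and −0.075 to 1.01 for SNHG28. The GC-content offset turned SNHG7 to −0.071, SNHG8 to 0.019 and SNHG4 to 0.0075 for AP001189.3 against control, and GAS5 to −0.022 and ZFAS1 to 0.00014 in the direct comparison, where library size alone turned ZFAS1 to 0.0063 and SNHG20 to 0.0077 and the replicate block turned GAS5 to −0.00051. Leaving out 1 library gave 2 to 9 host genes higher and 0 to 2 lower for LINC00996 against control, 4 to 8 higher and 1 to 3 lower for AP001189.3 against control, and 2 to 6 higher and 1 lower for LINC00996 against AP001189.3. Against control, the lowest LINC00996 counts were 2 without control replicate 1 and 3 without control replicate 2, and the highest 9 without LINC00996 replicate 1. For AP001189.3 the lowest counts were 4, without AP001189.3 replicate 2 or replicate 3. The direct comparison fell to 2 without AP001189.3 replicate 2 or replicate 3. The GC-content offset, added after the data were seen, gave 11 higher for LINC00996 against control instead of 5, and 7 instead of 4 against AP001189.3. Requiring a log2 change of 1 or more in size left 1 higher in each comparison, 0 lower for AP001189.3 against control and 0 lower in the direct comparison. One fit of all 9 libraries left 0 higher and 0 lower for AP001189.3 against control, where library size alone gave 4 lower instead of 2. The cause was not tested. The replicate numbers did not pair the samples: correlations of the deviations of same-numbered libraries were −0.02 to 0.15. With a replicate block 7 hosts were higher and 0 lower for LINC00996 against control, 7 and 2 for AP001189.3 and 4 and 1 in the direct comparison.

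Counts of all genes called also moved. For LINC00996 against control 3588 genes were called, 6112 with the GC-content offset, 5481 without LINC00996 replicate 1 and 1925 to 2162 without 1 control library. For AP001189.3 against control the 3180 calls became 435 with all 9 libraries in 1 fit, and 1974 and 1914 without control replicate 2 or AP001189.3 replicate 2. In the direct comparison the 3452 calls became 6072 with the GC-content offset, 6828 without LINC00996 replicate 1, 2125 without LINC00996 replicate 2 and 1840 to 1957 without 1 AP001189.3 library. Hosts with at most 28 counts in any library, such as SNHG21, SNHG26 and SNHG28, had wide intervals (SNHG26 −0.77 to 1.07 on the log2 scale for LINC00996 against control).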

Other observations

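The table holds 4 genes that carry other symbols in its annotation and SNHG symbols in the newer gene names. LRRC75A-AS1 (now SNHG29) was the most counted of them, with 2738, 2596 and 2808 counts in control, 3901, 2845 and 3123 with LINC00996 and 2776, 2120 and 2453 with AP001189.3. It was more abundant in counts than any of the 29 rows above. Its log2 fold change was 0.22 (95% interval −0.00 to 0.44, adjusted p = 0.15) with LINC00996 and −0.10 (−0.22 to 0.02, adjusted p = 0.22) with AP001189.3. In the direct comparison LRRC75A-AS1 had 0.32 (adjusted p = 0.053) and 0.22 without LINC00996 replicate 1 (adjusted p = 0.0047). C6orf48 (now SNHG32) had 175, 128 and 147 counts in control, 649, 237 and 236 with LINC00996 and 324, 255 and 256 with AP001189.3. Both plasmid groups lay above control, and LINC00996 replicate 1 was again far above its group. C6orf48 rose by 1.25 ± 0.36 (adjusted p = 0.037) on the log2 scale with LINC00996, 2.37-fold, and by 0.64 ± 0.15 without replicate 1 (adjusted p = 0.0012), 1.56-fold. In the direct comparison it had 0.30 (adjusted p = 0.55) and, without that library, −0.30 (adjusted p = 0.049). It rose by 0.94 ± 0.13 (adjusted p = 5.7e-06) with AP001189.3 on the log2 scale.

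LINC02001 (now SNHG30) had 76, 42 and 52 counts in control, 121, 104 and 85 with LINC00996 and 75, 78 and 55 with AP001189.3. Its log2 fold change with LINC00996 was 0.82 ± 0.24 (adjusted p = 0.030), and every LINC00996 library was above every control library. AC016708.1 (now SNHG31) had between 1 and 10 counts and was not tested. These genes entered no count over the 29 rows above, C6orf48 is one of the protein-coding snoRNA hosts counted there, and they were looked up after the values of the other hosts were known.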
